A study of Homo sapiens with 12 samples.

Results

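The change in gene expression with selinexor, compared between 2 acute myeloid leukaemia cell lines, is described here through the interaction of line and treatment: for each gene, the log2 fold change (selinexor over vehicle) in MOLM-13 minus that in OCI-AML2. All 12 libraries of the series entered, 3 in each of 4 groups. Raw counts of the 2 lines were joined by gene symbol. Of 17099 genes listed for OCI-AML2 and 16820 for MOLM-13, 15615 were in both tables. After a filter on low counts 12530 genes were tested, and 8343 of these were well counted, with a mean of at least 10 CPM (counts scaled to library size) in each line. A gene was taken as opposite when it was well counted, its change passed the test in both lines with opposite signs, the interaction passed, and in each line the 3 selinexor libraries lay on 1 side of the 3 vehicle libraries. That rule gave 258 genes, 62 up in MOLM-13 and down in OCI-AML2 and 196 down in MOLM-13 and up in OCI-AML2.

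OCI-AML2 and MOLM-13 are established human acute myeloid leukaemia lines that grow as leukaemic blasts in suspension. Both were kept for 36 h with vehicle (DMSO) or with selinexor, OCI-AML2 at 200 nM and MOLM-13 at 75 nM, and polyadenylated RNA of whole cells was sequenced. The submitters describe the 3 libraries of a group as biologically independent. The dose differed with the line, so line and dose cannot be told apart in any value below, and each line is a single model of the disease. The labels give no genotype. MOLM-13 is known for an internal tandem duplication of the receptor FLT3, and both lines for rearrangements of KMT2A, the histone methyltransferase that keeps HOXA genes on.

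Selinexor is a small molecule that binds a cysteine in the cargo groove of XPO1 (exportin 1), the receptor that carries proteins with a leucine-rich export signal, and some RNAs, out of the nucleus. Blocked XPO1 keeps cargoes such as p53, FOXO proteins, IκB and nucleophosmin in the nucleus. Cells answer by making more XPO1 transcript, which is used as a sign that the drug reached its target. In myeloid leukaemia XPO1 inhibitors are known to stop the cell cycle and to bring on features of maturation.

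Library totals ranged from 8114892 to 11769061 counts. The common biological coefficient of variation was 0.0431. In counts simulated with each gene's own spread, the fit recovered 54 of 67 genes with a 2-fold difference between the lines (80.6%). It recovered 33 of 67 with a 1.5-fold one (49.3%). The estimated sign was wrong for 2 of the 67 at 2-fold and 4 of the 67 at 1.5-fold. Only 200 genes were changed there, against 3768 called in the data, so recovery in the data can differ. Counts are printed below as CPM scaled with edgeR's TMM factors over the 12 libraries, in library order, and changes as log2 estimates ± SE from 3 against 3 libraries. The labelled cell type was checked with markers. All 7 myeloid leukaemia markers were counted, with a summed level of 1317.5 to 1342 and 1698 to 1708 unscaled CPM in OCI-AML2 with vehicle and selinexor, and 1045.2 to 1066 and 1665 to 1720.5 in MOLM-13. GATA1 and PF4, markers of red cells and platelets, stayed at or under 0.123 CPM in every library, below the level of 3 counts. KRT18, an epithelial keratin, was at 0 to 0.614 CPM in OCI-AML2, and in MOLM-13 at 3.92 to 4.42 with vehicle and 8.80 to 13.4 with selinexor.

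The comparison asks where the 2 lines respond unlike each other. Of the 12530 tested genes, 3768 changed differently in the lines (30.1% of tested, by edgeR's quasi-likelihood F test at a Benjamini-Hochberg adjusted p of 0.05), 1388 with a higher value in MOLM-13 (11.1%) and 2380 with a lower one (19%). For these calls and differences, higher or lower in MOLM-13 refers below to the change with selinexor and not to the level. The split between the directions moved with the scaling: 63.2% of the calls were lower in MOLM-13 with TMM, 55.6% with DESeq2's size factors, 53.6% with each line scaled alone and 50.8% with upper quartile scaling. It turned when any of 4 vehicle libraries was left out (OCI-AML2 1, 2 or 3, or MOLM-13 2), with 43.2% to 44.2% lower. A change passed in 61.1% of genes in OCI-AML2 (33.5% up, 27.6% down) and 59.6% in MOLM-13 (29.9% up, 29.7% down). Of 5444 genes called in both lines, 5098 (93.6%) went the same way and 346 opposite ways. Within the same direction, the change was called larger in MOLM-13 for 907 genes and larger in OCI-AML2 for 694. The difference reached 2-fold for 223 genes in the higher and 258 in the lower direction.

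**Figure D1:**
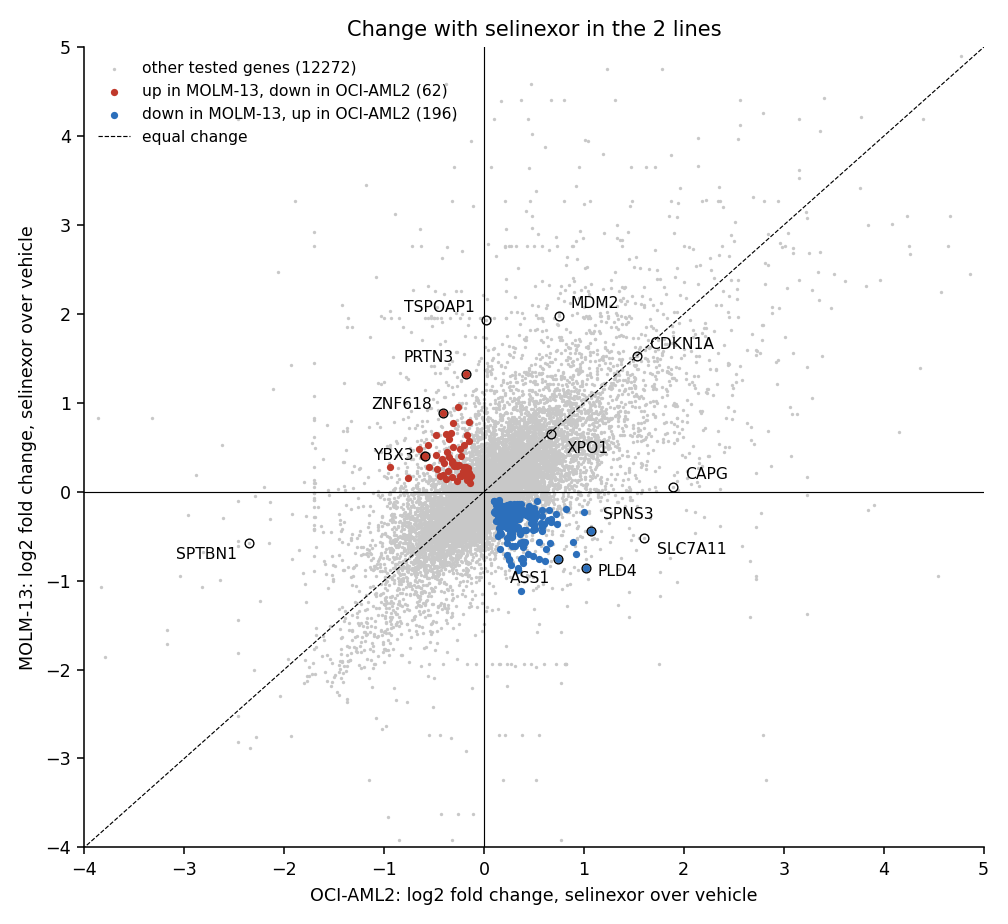
Each point is 1 of 12530 tested genes, with its log2 fold change (selinexor over vehicle) in OCI-AML2 on the x axis and in MOLM-13 on the y axis (17 genes lie outside the axes); the dashed line marks equal change. The 62 opposite genes up in MOLM-13 sit upper left, the 196 down in MOLM-13 lower right, while XPO1 and CDKN1A sit on the line of equal change.

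XPO1 itself (chromosome 2, 61477849 to 61538626, minus strand) was named whatever its values. Whether the 2 doses blocked the protein to the same degree was not tested. Its transcript rose by 0.67 ± 0.039 in OCI-AML2 and 0.65 ± 0.039 in MOLM-13, and the difference was -0.014 ± 0.055 with a 95% interval of -0.12 to 0.095. CDKN1A, which encodes the cell cycle inhibitor p21, rose by 1.54 ± 0.052 and 1.52 ± 0.045, a difference with an interval of -0.15 to 0.12. For MYC, the growth-promoting transcription factor, the interval was -0.069 to 0.14. The sign of the XPO1 and CDKN1A differences turned under other scalings, and neither passed the test under any setting. The other 3 genes of interest did differ. MDM2, the ubiquitin ligase that restrains p53, rose by 0.75 in OCI-AML2 and 1.98 in MOLM-13 (difference 1.23 ± 0.063, edgeR adjusted p = 8e-30). FLT3 rose by 1.09 and 0.38 (difference -0.71 ± 0.059, edgeR adjusted p = 1.5e-17), and P2RY2, a receptor for extracellular nucleotides, by 1.18 and 1.51 (difference 0.33 ± 0.070, edgeR adjusted p = 9.2e-05).

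The 258 opposite genes were 3.09% of the well-counted genes, 0.743% for those up in MOLM-13 and 2.35% for those down. The changes that chose them are given as a description. Groups without overlap were common by themselves, in 64.2% of tested genes in OCI-AML2 and 62.8% in MOLM-13. Most were small: the smaller of a gene's 2 changes had a median of 0.23 on the log2 scale and ranged from 0.096 to 0.85. The distance between the lines had a median size of 0.61 and ranged from 0.20 to 1.87, and it reached 2-fold in 10 of the 62 and 28 of the 196. Of all 8343 well-counted genes, 3133 (37.6%) changed differently in the lines. In only 5 genes, all down in MOLM-13, did both reach 1.5-fold: PLD4, ASS1, RMI2, KANK2 and EEF1E1. Just inside the limit of 10 CPM lay DPYD, and just outside it MPO.

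How many genes met the rule depended on the scaling. With upper quartile scaling 98 were up and 146 down in MOLM-13, with DESeq2's size factors 78 and 161, and with each line fitted alone 92 and 153. Without OCI-AML2 vehicle library 1, 2 or 3, or without MOLM-13 vehicle library 2, the numbers up were 122, 122, 114 and 117 and those down 115, 118, 115 and 112. In these 4 fits TMM takes another library as its reference, and the median difference over all genes goes from -0.040 to between 0.048 and 0.052. Of the 62 genes up in MOLM-13, 55 met the rule under all 3 other scalings and 29 under 7 other settings (those scalings, DESeq2, limma voom, no filter on low counts, genes of either table) and all 12 fits that leave out a library. For the 196 the numbers were 111 and 80. All 15 named genes down in MOLM-13 were among the 80, and 11 of the 15 up in MOLM-13 among the 29 (not SLC48A1, KIF3A, DPYD and IFT57). These 15 of each direction were chosen for the largest smaller change, so they do not stand for the rest.

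**Figure D2:**
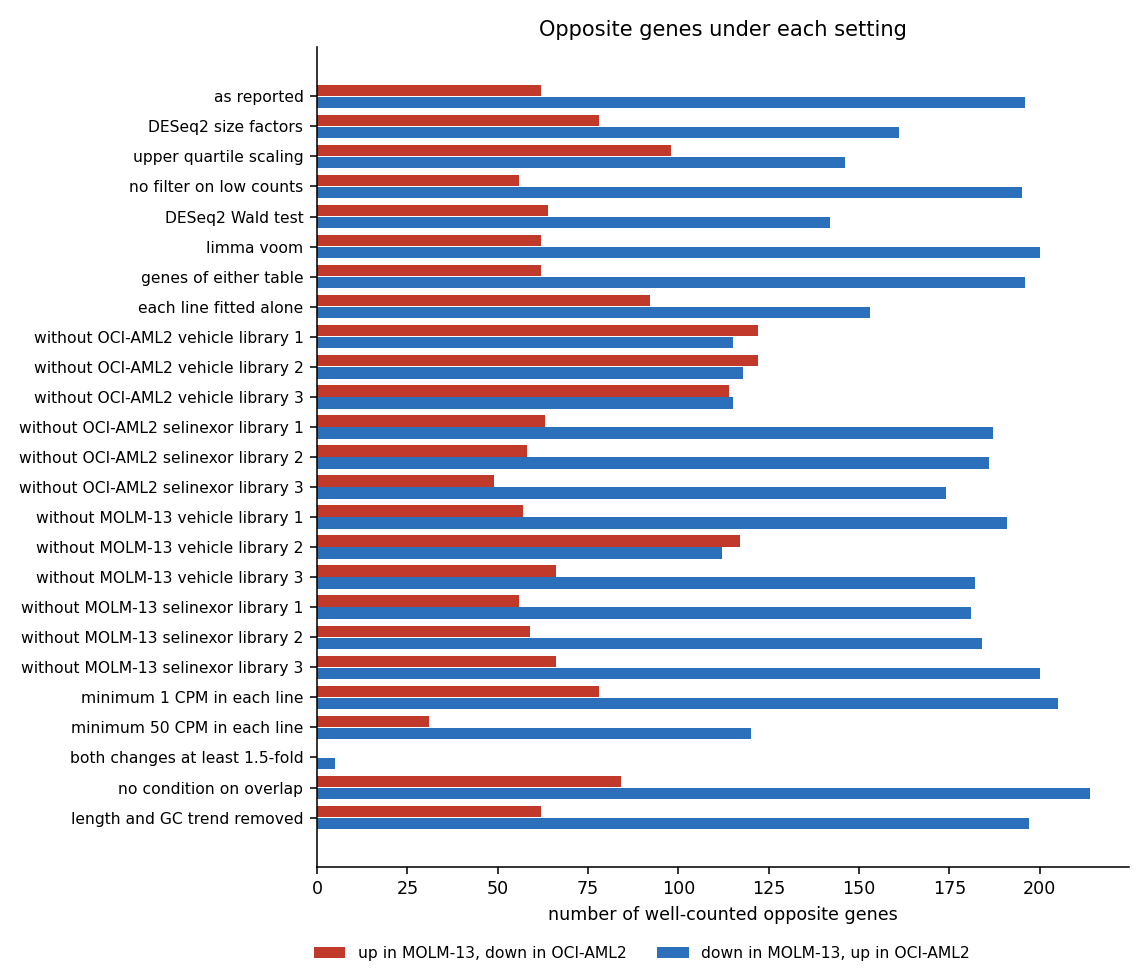
Bars give the number of well-counted opposite genes under each setting, in red those up in MOLM-13 and down in OCI-AML2 and in blue the reverse. The blue bars exceed the red ones as reported (196 and 62), and the 2 are close together (122 and 115, for example) without any 1 of the OCI-AML2 vehicle libraries or MOLM-13 vehicle library 2.

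Among the genes up in MOLM-13 and down in OCI-AML2, several of the named ones act on transcription or RNA. YBX3 (chromosome 12, 10699089 to 10723312, minus strand), a cold shock protein that binds DNA and RNA, went in OCI-AML2 from 240.3, 248 and 244 CPM with vehicle to 160.1, 160.3 and 167 with selinexor. In MOLM-13 it went from 191, 188 and 183 to 252, 243 and 247 CPM. The libraries of a group were tightly packed, and in MOLM-13 YBX3 ended near the level at which untreated OCI-AML2 cells began. Its difference was 0.99 ± 0.060. LMO4 (chromosome 1, 87328468 to 87348923, plus strand), a LIM-domain cofactor of transcription, read 57.8, 61.3 and 55.7 CPM with vehicle and 43.8, 47.3 and 44.1 with selinexor in OCI-AML2, and 236, 245 and 227 then 332, 319.7 and 317 in MOLM-13. The line with the higher level before treatment was the one that rose. ZNF618, a zinc finger protein, had the largest difference of the 15 genes chosen by their smaller change, 1.29 ± 0.14, made of a fall (-0.41) in OCI-AML2 and a rise of 0.88 in MOLM-13. For LIN54, the DNA-binding subunit of the DREAM complex, CBX6, a Polycomb chromobox protein, and SRSF8, a splicing factor, differences were 0.67 ± 0.13, 0.72 ± 0.074 and 0.89 ± 0.13.

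RGS16 (chromosome 1, 182598623 to 182604408, minus strand), which speeds the shut-off of G protein signals, fell in OCI-AML2 from 33.4, 33.8 and 37.2 to 21.8, 22.7 and 26.1 CPM and rose in MOLM-13 from 58.8, 59.2 and 62.5 to 80.8, 95.99 and 83.1. Its changes were -0.56 ± 0.087 and 0.53 ± 0.070, a difference of 1.09 ± 0.11. DGKE, a diacylglycerol kinase, changed by -0.33 in OCI-AML2 and 0.66 in MOLM-13, and MPZL1, a surface glycoprotein that binds the phosphatase SHP2, by -0.35 and 0.60. TNFRSF10A, a death receptor for TRAIL and a p53 target, read 50.9, 50.8 and 48.9 then 42.1, 41.6 and 37.04 CPM in OCI-AML2, and 16.8, 21.9 and 20.3 then 26.7, 22.8 and 24.6 in MOLM-13. Its MOLM-13 groups lay close together without overlapping.

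Others of the 15 serve motors, membranes and mitochondria. KIF3A, a subunit of kinesin-II, and IFT57, a carrier of cilium building, differed by 1.01 ± 0.2 and 0.74 ± 0.15. VPS50 (chromosome 7, 93232340 to 93361121, plus strand), part of a complex that returns endosomes to the surface, read 15.9, 15.4 and 12.7 then 10.7, 9.58 and 11.1 CPM in OCI-AML2, and 11.9, 12.2 and 12.8 then 19.2, 21.2 and 16.8 in MOLM-13. These are low counts, and the groups lay side by side without overlapping in either line. SLC48A1, a haem transporter, and DPYD, which breaks down pyrimidines, differed by 1.13 ± 0.2 and 1.03 ± 0.22, with larger errors at their low counts. COX20, which helps assemble cytochrome c oxidase, changed by -0.42 ± 0.058 in OCI-AML2 and 0.36 ± 0.058 in MOLM-13.

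**Figure D3:**
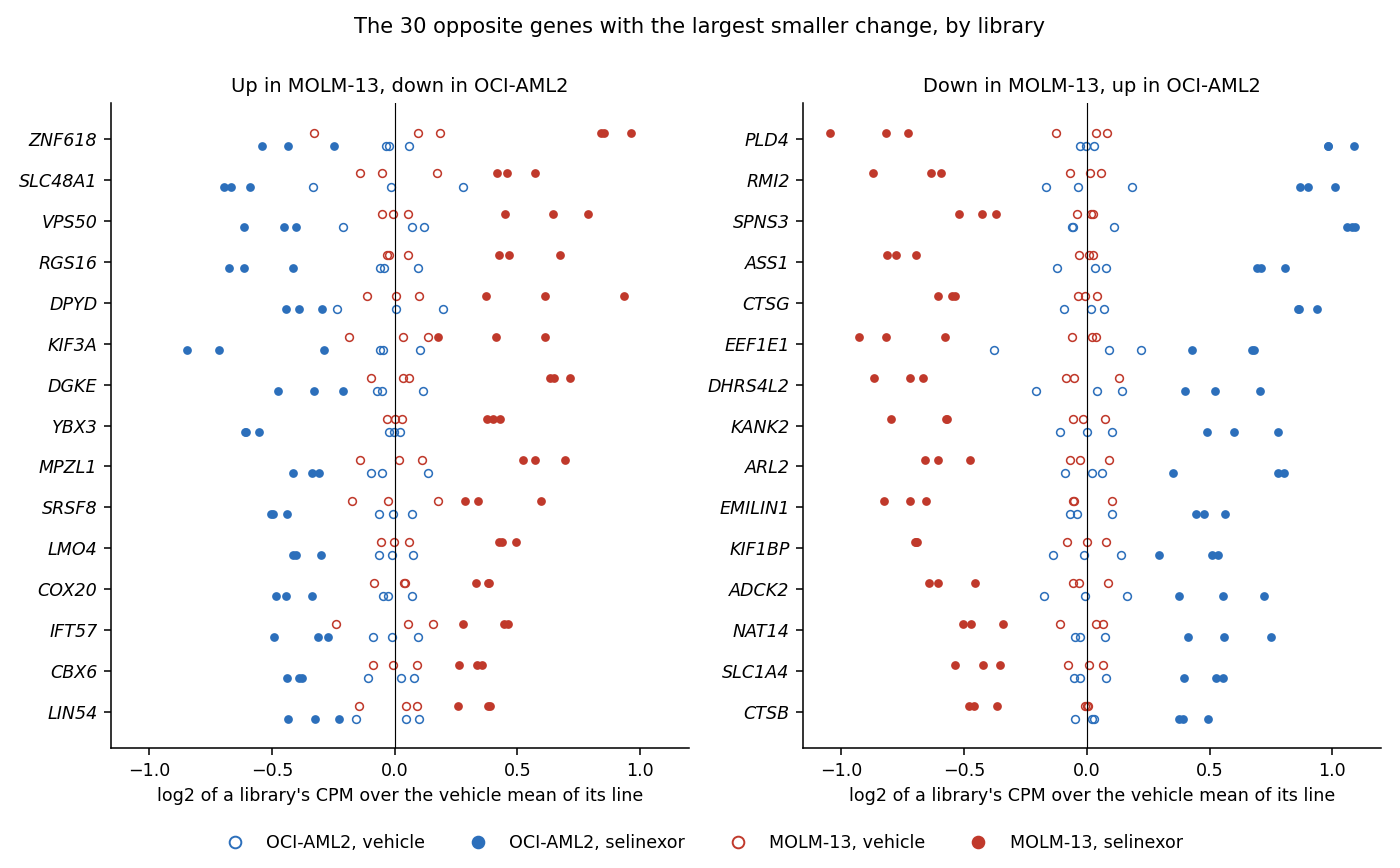
For the 15 named opposite genes of each direction, points give log2 of each library's CPM over the mean of the 3 vehicle libraries of its line (open, vehicle; filled, selinexor; blue, OCI-AML2; red, MOLM-13). Filled red and blue points fall on opposite sides of 0 in every row, with distances between the lines from 0.67 (LIN54) to 1.87 (PLD4) on the log2 scale.

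In the other direction the largest distance was that of PLD4 (chromosome 14, 104924713 to 104937790, plus strand), a lysosomal exonuclease that clears single-stranded nucleic acid. PLD4 went from 90.5, 94.1 and 91.999 to 196, 182 and 182 CPM in OCI-AML2 and from 52.97, 59.3 and 61.1 to 32.8, 34.9 and 27.95 in MOLM-13. The rise was 2.02-fold in OCI-AML2 and the fall 1.81-fold in MOLM-13, a log2 difference of -1.87 ± 0.091, and the 4 groups did not overlap. RMI2 (chromosome 16, 11249619 to 11381662, plus strand), a subunit of the complex with which BLM dissolves recombination intermediates, read 25.3, 29.5 and 23.1 then 48.5, 47.5 and 52.3 CPM in OCI-AML2, and 17.7, 18.3 and 16.8 then 11.3, 9.62 and 11.7 in MOLM-13. It was the only tested member of its 27-gene recombination and Fanconi list to rise in OCI-AML2, where 22 others fell. KANK2, which links talin at adhesions to the cell cortex, and EEF1E1, a scaffold of the multi-tRNA synthetase complex, differed by -1.26 ± 0.13 and -1.39 ± 0.18.

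The rest of the 15 named genes down in MOLM-13 came from several cell functions. SPNS3 (chromosome 17, 4433688 to 4488208, plus strand), a transporter of the Spinster family, rose in OCI-AML2 from 101, 114 and 101 to 224, 222 and 219 CPM, and read 102, 106 and 106 then 81.03, 72.99 and 77.8 in MOLM-13. Both lines held nearly the same level before treatment, and the difference between their changes was -1.52 ± 0.075. ARL2, a small GTPase of tubulin folding, and KIF1BP, which binds kinesins, differed by -1.23 ± 0.17 and -1.14 ± 0.14. EMILIN1, a glycoprotein of the elastic matrix, and NAT14, a predicted acetyltransferase, differed by -1.22 ± 0.11 and -1.02 ± 0.13. ADCK2, a kinase-like protein of mitochondria, and DHRS4L2, of the short-chain dehydrogenase family, differed by -1.12 ± 0.2 and -1.31 ± 0.15. DHRS4L2 is a close copy of DHRS4 and SRSF8 of SRSF2, so their counts could be shared with the copy. These libraries do not keep the strand, and PLD4 shares 547 exonic bases with AHNAK2 on the other strand, RMI2 260, ADCK2 409, SPNS3 99 and COX20 3502 with an antisense neighbour.

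Azurophil granules of the neutrophil lineage hold the serine proteases PRTN3 (proteinase 3), CTSG (cathepsin G) and ELANE (elastase), the inactive homologue AZU1 and the peroxidase MPO. PRTN3 (chromosome 19, 840960 to 848175, plus strand) read 155, 151 and 148 CPM with vehicle and 131, 125 and 144 with selinexor in OCI-AML2, and 910.0, 925 and 928 then 2273, 2381 and 2296 in MOLM-13. A slight fall in OCI-AML2 (-0.18 ± 0.044) stood beside a 2.51-fold rise in MOLM-13, a difference of 1.51 ± 0.057. CTSG (chromosome 14, 24573522 to 24576260, minus strand) did the reverse. It rose in OCI-AML2 from 349.7, 324 and 362 to 628, 627 and 662 CPM and fell in MOLM-13 from 251, 256 and 265 to 176, 169 and 177, a difference of -1.45 ± 0.058 with no overlap of groups in either line.

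MPO moved with PRTN3, from 11.04, 12.7 and 10.4 to 6.92, 8.6 and 8.86 CPM in OCI-AML2 and from 28.7, 32.4 and 33.1 to 72.2, 66.7 and 67.3 in MOLM-13 (difference 1.61 ± 0.16). Its mean in OCI-AML2 fell just short of 10 CPM, which kept it out of the opposite set. MPO was named because it met the other conditions, a called interaction among them. AZU1 rose in both lines, more in OCI-AML2: it read 860.3, 901 and 886 then 3226, 3188 and 3275 CPM there, and 1012, 1073 and 1083 then 1848, 1881 and 1727 in MOLM-13 (difference -1.09 ± 0.051, edgeR adjusted p = 7e-33). AZU1, PRTN3, ELANE and CFD (complement factor D) follow each other in this order on the plus strand of chromosome 19, with 8941, 2838 and 3395 bases between them. Their differences were -1.09 ± 0.051, 1.51 ± 0.057, -0.31 ± 0.089 and -1.15 ± 0.058 in that order. The change of PRTN3 was thus higher in MOLM-13 and the changes of the other 3 of these 4 lower. Levels are another matter: ELANE rose in both lines, by 0.60 in OCI-AML2 and 0.29 in MOLM-13. Its means were 29.3 then 44.6 CPM in OCI-AML2 and 1463 then 1789 in MOLM-13. The change of MED16, the next gene after CFD, was higher in MOLM-13 by 0.29 ± 0.096. That of PLPPR3, the gene before AZU1, differed by 0.021 ± 0.052. ELANE, CFD, MED16 and PLPPR3 were named after their values were seen. Of 18 tested genes of the granulocyte and granule list, 6 were higher and 4 lower in MOLM-13 (55.6% called, against 30.1% of all tested genes). The median difference was 0.17, and 0.025 to 0.35 under 20 other settings of the fit. In the whole list 13 rose and 4 fell in OCI-AML2, and 14 rose and 1 fell in MOLM-13. The shares over all tested genes, for this list and those below, were 33.5% up and 27.6% down in OCI-AML2 and 29.9% and 29.7% in MOLM-13. The interaction called 11.1% of all tested genes higher and 19% lower in MOLM-13. Of well-counted genes it called 37.6% in either direction, the closer share for lists with mostly well-counted members.

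The promoters of the granule genes are shown because genes of 1 granule moved apart. For AZU1, PRTN3 and CTSG, RefSeq (GRCh38.p14) gave a sequence, printed as the 250 bases before the start annotated in RefSeq (chr19:827587-827836 and chr19:840749-840998 on the plus strand, chr14:24576251-24576500 on the minus strand). The gene positions above are from GENCODE, whose starts differ. The PRTN3 and CTSG windows reach into the GENCODE genes, and the AZU1 window lies within the GENCODE gene (825097 to 832018). Capitals mark matches on either strand to the core motifs of 3 myeloid factors: GAGGAA for PU.1, AACTG for MYB and TTGCNNAA for C/EBP.
AZU1: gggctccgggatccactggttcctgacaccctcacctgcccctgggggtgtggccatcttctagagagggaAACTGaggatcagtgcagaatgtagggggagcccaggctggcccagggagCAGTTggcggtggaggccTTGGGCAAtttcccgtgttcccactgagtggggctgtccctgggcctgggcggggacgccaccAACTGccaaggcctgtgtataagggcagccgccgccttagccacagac
PRTN3: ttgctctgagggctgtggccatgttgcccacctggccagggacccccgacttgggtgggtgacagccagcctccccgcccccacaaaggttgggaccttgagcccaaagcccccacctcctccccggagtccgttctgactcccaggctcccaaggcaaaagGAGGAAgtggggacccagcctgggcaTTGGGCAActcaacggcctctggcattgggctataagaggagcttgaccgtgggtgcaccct
CTSG: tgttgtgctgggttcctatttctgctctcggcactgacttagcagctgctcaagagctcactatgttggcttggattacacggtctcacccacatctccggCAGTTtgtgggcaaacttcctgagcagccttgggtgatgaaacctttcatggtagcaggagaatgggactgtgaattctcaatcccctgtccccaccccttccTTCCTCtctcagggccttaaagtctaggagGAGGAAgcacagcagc
The AZU1 window held 3 matches for MYB, 1 for C/EBP and 0 for PU.1. The PRTN3 window held 1 for C/EBP, 1 for PU.1 and 0 for MYB, and the CTSG window 2 for PU.1, 1 for MYB and 0 for C/EBP. Such short motifs are common: among 6762 promoters of well-counted genes, 22.6% held the PU.1 core, 27.2% the MYB core and 5.86% the C/EBP motif. Among the promoters found for opposite genes, the shares were 22.9%, 20.8% and 10.4% for the 48 up in MOLM-13 and 29.3%, 32.3% and 5.49% for the 164 down.

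The named genes of amino acid supply had negative differences, reached in different ways. ASS1 (chromosome 9, 130444929 to 130501274, plus strand), which makes the precursor of arginine from citrulline, rose in OCI-AML2 from 79.9, 71.7 and 82.4 to 137, 126 and 127 CPM and fell in MOLM-13 from 458, 478 and 471 to 289.5, 274 and 267. Treatment brought the 2 lines closer to each other, although MOLM-13 stayed higher in every library. SLC7A11 (chromosome 4, 138164097 to 138242349, minus strand), the cystine-glutamate antiporter, rose from 97.8, 86.6 and 93.1 to 282, 291 and 267 CPM in OCI-AML2 and read 17.004, 19.6 and 13.7 then 10.8, 10.5 and 14.04 in MOLM-13. This was the largest difference in the lower direction among well-counted genes with a called interaction (-2.12 ± 0.13), and SLC7A11 was named for it. One selinexor library of MOLM-13 overlapped the vehicle libraries, so SLC7A11 was not counted as opposite. SLC1A4, a transporter of neutral amino acids, was opposite, with changes of 0.49 ± 0.049 and -0.43 ± 0.056, and so was PSPH, the last enzyme of serine synthesis, with 0.40 ± 0.098 and -0.43 ± 0.076.

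PHGDH, the first enzyme of serine synthesis, fell in both lines but further in MOLM-13: it read 174, 185 and 186 then 144, 143 and 137 CPM in OCI-AML2, and 289, 293 and 299 then 79.99, 88.8 and 82.5 in MOLM-13 (difference -1.44 ± 0.067, edgeR adjusted p = 4.1e-33). SLC1A5, the main glutamine transporter, did likewise with changes of -0.37 and -1.31. Of the 31 tested targets of ATF4 and the integrated stress response, the pathway that raises amino acid supply when charged tRNA runs short, 19 were lower and 2 higher in MOLM-13 (67.7% called; median difference -0.25 against -0.040 over all genes). In OCI-AML2 9 of them rose and 16 fell, and in MOLM-13 3 rose and 24 fell. SESN2, a leucine-sensing inhibitor of mTORC1 in this list and among the p53 targets, was opposite with changes of 0.27 ± 0.11 and -0.30 ± 0.092, but it met the rule under 2 of 3 other scalings and with neither DESeq2 nor limma voom.

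**Figure D4:**
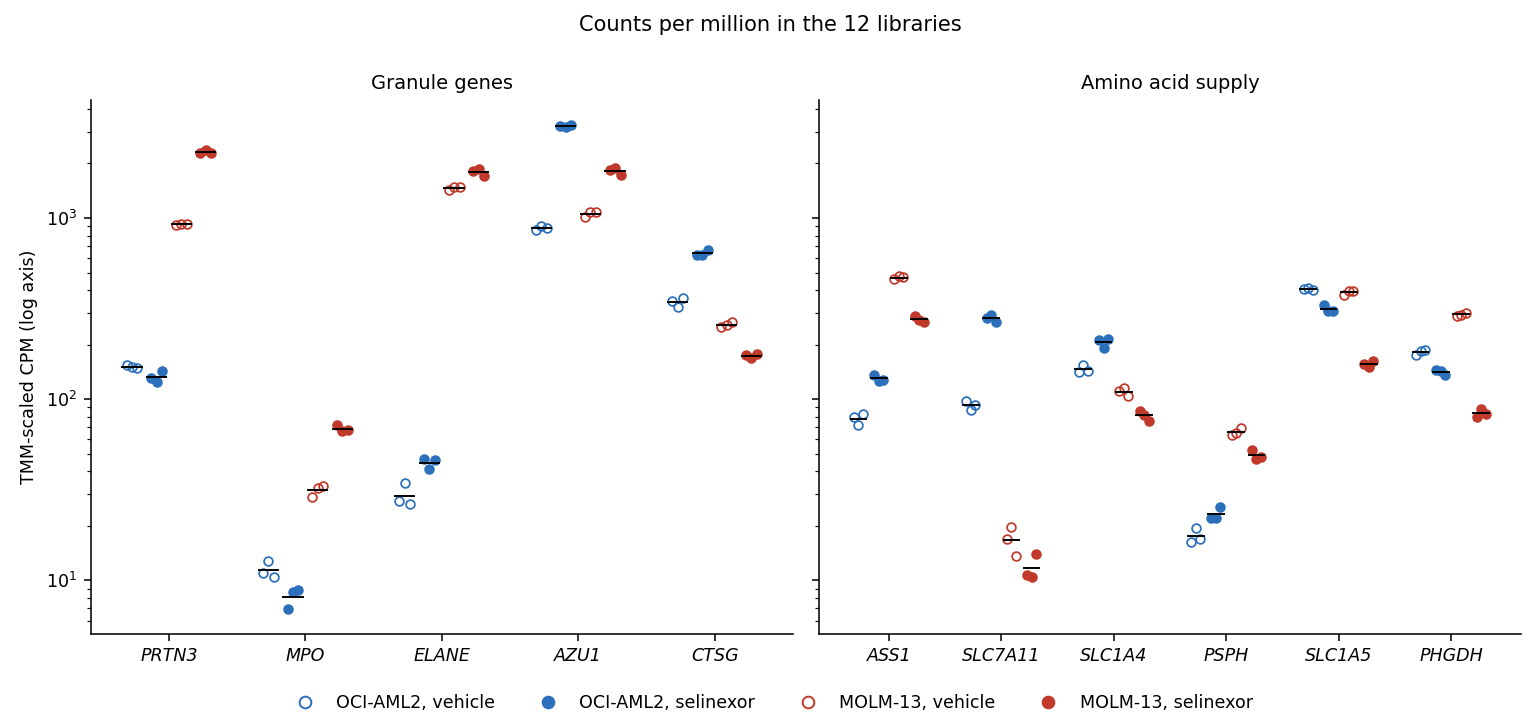
CPM in each of the 12 libraries on a log axis (open, vehicle; filled, selinexor; blue, OCI-AML2; red, MOLM-13; bar, mean of 3 libraries) for granule genes (left) and genes of amino acid supply (right). Heights compare libraries within a gene, not genes of different length. PRTN3 rises from 910.0 to 928 up to 2273 to 2381 CPM in MOLM-13 while CTSG falls there, and in OCI-AML2 the 2 do the reverse.

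Of 46 lysosomal genes tested, 33 rose and 3 fell in OCI-AML2 and 24 rose and 9 fell in MOLM-13, with median changes of 0.58 and 0.29. The interaction called 20 lower in MOLM-13 and 1 higher (45.7%, against 30.1% of all tested and 37.6% of well-counted genes), with a median difference of -0.28. CTSB, the cysteine protease cathepsin B, read 73.4, 73.8 and 70.1 then 93.96, 102 and 95.1 CPM in OCI-AML2, and 161, 160.3 and 162 then 115, 125 and 117 in MOLM-13. Treatment brought the lines closer, and MOLM-13 stayed higher in every library. GUSB, beta-glucuronidase, was also opposite, with changes of 0.25 ± 0.060 and -0.40 ± 0.071. CTSA, a protective protein of lysosomal enzymes, rose by 1.17 in OCI-AML2 and changed by -0.064 ± 0.058 in MOLM-13 (difference -1.24 ± 0.074, edgeR adjusted p = 8.3e-26). It shares 1038 exonic bases with a gene on the other strand. PSAP, the precursor of the saposins, rose in both, by 1.69 and 1.16.

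Of the HOXA genes and their partners, which keep myeloid progenitors immature and are driven by rearranged KMT2A, HOXA10 and HOXA9 were opposite. HOXA10 (chromosome 7, 27170591 to 27180261, minus strand) rose in OCI-AML2 from 47.4, 48.8 and 51.3 to 59.98, 63.7 and 69.6 CPM and fell in MOLM-13 from 71.3, 75.4 and 77.6 to 40.3, 43.6 and 45.3. The difference was -1.19 ± 0.099, and HOXA10 met the rule under the 7 other settings listed above and without any 1 library, though its rise in OCI-AML2 did not reach 1.5-fold. HOXA9 read 38.1, 29.99 and 33.1 then 44.95, 43.5 and 47.8 CPM in OCI-AML2, and 43.8, 49.6 and 49.7 then 38.3, 42.7 and 40.9 in MOLM-13, a difference of -0.67 ± 0.11. It met the rule under 2 of 3 other scalings and left the set when trends over length and GC content were removed. Both genes overlap antisense genes, by 608 and 422 exonic bases. Of 21 tested genes of this list 7 were lower and 3 higher in MOLM-13 (47.6%). In OCI-AML2 10 of them rose and 5 fell, and in MOLM-13 6 rose and 9 fell. MEIS1 was lower with selinexor in both lines. It read 27.5 to 29.2 then 18.8 to 20.4 unscaled CPM in OCI-AML2, and 31.8 to 36.0 then 22.2 to 22.6 in MOLM-13. CEBPA, the factor that commits cells to the myeloid path, rose in both lines, by 0.65 and 0.96 (difference 0.32 ± 0.051).

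In energy metabolism, nuclear and mitochondrial transcripts had median differences of opposite sign. Of 32 tested nuclear genes of oxidative phosphorylation, 9 rose and 10 fell in OCI-AML2, while 2 rose and 22 fell in MOLM-13. The interaction called 16 lower and 0 higher in MOLM-13 (50% called, against 30.1% of all tested and 37.6% of well-counted genes). The median difference was -0.26. The SD of such a difference built from single libraries of the 4 groups, without averaging over replicates, was 0.075. Under the 20 settings it ranged from -0.27 to -0.10 and its sign never turned. Opposite genes of this list included COX5B, NDUFB10 and NDUFV1. NDUFV1, a core subunit of complex I, read 225, 238 and 239.8 then 262, 251 and 261 CPM in OCI-AML2, and 284, 288 and 269.5 then 236, 239 and 219 in MOLM-13. All 3 left the opposite set once trends over length and GC content were removed, and COX5B also left it under other scalings. Of the 13 transcripts encoded by mitochondrial DNA, 6 were higher and 0 lower in MOLM-13 (46.2%, against the same 30.1% and 37.6%). Their median difference was 0.27, with an SD for single libraries of 0.19, and 0.21 to 0.57 under the 20 settings. ND2, a subunit of complex I, read 451, 480.3 and 443 then 406, 373 and 388 CPM in OCI-AML2 and 486, 489.7 and 516 then 655, 722 and 703 in MOLM-13, a difference of 0.72 ± 0.056. Its reads can be shared with nuclear copies. ND4 and ND5 differed by 0.53 ± 0.1 and 0.84 ± 0.15.

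Mitochondrial enzymes of the citric acid cycle included IDH2, which was named after its values were seen. IDH2 (chromosome 15, 90083045 to 90102504, minus strand) makes alpha-ketoglutarate and NADPH. It rose in OCI-AML2 from 198, 200.4 and 197 to 271, 242 and 255 CPM and fell in MOLM-13 from 247, 259.6 and 251 to 116, 117 and 117. The 2.16-fold fall in MOLM-13 was the largest of any opposite gene there, and the difference was -1.48 ± 0.062. In the list of glycolysis, the pentose phosphate path and hypoxia, 14 of 35 were lower and 1 higher in MOLM-13. These were 42.9%, against 30.1% of all tested and 37.6% of well-counted genes, and 29 of the 35 were well counted. The median difference of this list was -0.15. PFKL, a phosphofructokinase of glycolysis, went from 209.8, 208 and 220.5 to 280.3, 249 and 264 CPM in OCI-AML2 and from 277, 277 and 285 to 222, 211 and 201 in MOLM-13. TKT, the transketolase of the pentose phosphate path, differed by -0.56 ± 0.054. Both met the rule under those 7 settings and without any 1 library, but not with changes of at least 1.5-fold in both lines.

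Most cell cycle genes fell in both lines and further in MOLM-13, at the lower of the 2 doses. None of the DNA replication, G2 and mitosis genes was opposite. Of 47 tested genes of DNA replication, 45 fell in OCI-AML2 and 47 in MOLM-13, with median changes of -0.57 and -1.25. The interaction called 45 lower and 0 higher in MOLM-13 (95.7%), the largest share of any list, with a median difference of -0.68. MCM5, a subunit of the replicative helicase, read 270.5, 265 and 259 then 213, 212 and 212 CPM in OCI-AML2, and 309.7, 317 and 312 then 122, 124 and 119 in MOLM-13. MOLM-13 began at the higher level and ended at the lower one (difference -1.04 ± 0.059, edgeR adjusted p = 3.8e-27). CDT1, which loads that helicase, differed by -1.07 ± 0.076. G2 and mitosis genes fell in both lines, 32 of 32 (medians -1.36 and -1.85), and 28 were lower in MOLM-13 (87.5%). CDK1, the kinase of mitotic entry, changed by -1.15 and -2.09. In the recombination and Fanconi list 18 of 27 were lower in MOLM-13 (66.7%), among them BRCA1 (-0.85 ± 0.087) and CHEK1 (-0.90 ± 0.11).

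Of 40 p53 targets tested, 18 were called higher in MOLM-13, 4 lower and 18 neither (55% called), with a median difference of 0.32. In OCI-AML2 27 rose and 4 fell, and in MOLM-13 32 rose and 3 fell. TRIM22, an antiviral ubiquitin ligase, rose in OCI-AML2 from 51.3, 51.2 and 50.3 to 254, 266 and 262 CPM and in MOLM-13 from 30.6, 32.2 and 30.2 to 342, 319 and 338 (difference 1.07 ± 0.077, edgeR adjusted p = 4.7e-21). CYFIP2, a part of the WAVE actin complex, rose by 0.91 and 2.25. BAX, the pore-forming death protein, rose by 0.29 and 0.71 (difference 0.42 ± 0.067). The difference for CDKN1A was near 0, as given above. Of 23 FOXO targets and feedback genes of PI3K signalling, 4 were higher and 7 lower in MOLM-13 (47.8%, against 30.1% of all genes). Their median difference of -0.068 turned sign without MOLM-13 vehicle library 1. CDKN1B, the cell cycle inhibitor p27, was opposite: it rose in OCI-AML2 (0.26 ± 0.072) and fell in MOLM-13 (-0.29 ± 0.071).

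Signalling lists gave mixed pictures. All 7 called genes of the 28 in the ERK feedback and immediate early list were higher in MOLM-13 (25%, under the 30.1% of all genes), among them JUND (0.40 ± 0.059) and ETV4 (0.60 ± 0.13). In the list of STAT5 and FLT3 output 3 were higher and 4 lower of 20 (35%, near the 30.1% of all genes). For NF-kB targets and cytokines 7 were higher and 2 lower of 22 (40.9%, against the same 30.1% and 37.6% of well-counted genes). TNF, the inflammatory cytokine, rose in MOLM-13 by 0.74 and changed by 0.03 ± 0.080 in OCI-AML2 (difference 0.71 ± 0.099, edgeR adjusted p = 7.4e-09). CCL5, a chemokine, was the 1 opposite gene of the list, with 0.23 ± 0.068 in OCI-AML2 and -0.52 ± 0.090 in MOLM-13. Of 28 interferon response genes 8 were lower and 0 higher in MOLM-13 (28.6%, under the 30.1% of all genes; median difference -0.42). IFITM2, an antiviral membrane protein, was opposite with 0.35 ± 0.067 and -0.23 ± 0.080, but met the rule under 2 of 3 other scalings.

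Genes of nuclear transport and of the ribosome were also counted. Of 32 tested transport genes 7 were higher and 3 lower in MOLM-13 (31.2%), close to the share of all genes and under the 37.6% of well-counted genes. RANBP2, the large protein of the cytoplasmic face of the nuclear pore, was opposite: it read 145, 152 and 142 then 131, 123 and 121 CPM in OCI-AML2, and 142, 141 and 146 then 156, 159.6 and 170.1 in MOLM-13. It left the opposite set when trends over length and GC content were removed. XPO4, another exportin, changed by -0.56 in OCI-AML2 and was at -0.066 ± 0.057 in MOLM-13 (difference 0.50 ± 0.083, edgeR adjusted p = 9e-07). Of 36 ribosome biogenesis genes, 32 fell in OCI-AML2 and 30 in MOLM-13, and 15 were higher and 2 lower in MOLM-13 (47.2%; median difference 0.14). NOLC1, a nucleolar chaperone, fell less there (difference 0.40 ± 0.053). Ribosomal protein genes rose in both lines, 50 and 49 of 52, and 11 of them differed (21.2%, under the 30.1% of all genes).

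Surface and lineage markers were counted for each line. NCAM1 (CD56), an adhesion molecule of natural killer cells that some myeloid leukaemias carry, was opposite. It rose in OCI-AML2 from 58.6, 58.8 and 56.03 to 94.1, 97.4 and 93.5 CPM and fell in MOLM-13 from 127, 126 and 133 to 111, 103 and 111. The B cell receptor gene CD79A was scarce, at or under 1.60 unscaled CPM in every library. NKG7, of the same lymphocyte marker list, was higher, at 10.8 to 17.2 unscaled CPM over the libraries of both lines. Of 27 monocyte and macrophage markers 5 were higher and 5 lower in MOLM-13 (37%, against 30.1% of all tested and 37.6% of well-counted genes). In this list 17 rose and 2 fell in OCI-AML2, and 11 rose and 3 fell in MOLM-13. Only 8 of the 27 were well counted. LYZ, lysozyme, rose by 2.51 and 3.04 (difference 0.53 ± 0.054), and FCGR2A, an Fc receptor, by 0.96 in OCI-AML2 with -0.22 ± 0.12 in MOLM-13. FCGR1A, another Fc receptor, was lower with selinexor in both lines. It read 93.8 to 107.7 then 69.2 to 78.6 unscaled CPM in OCI-AML2, and 41.5 to 48.3 then 23.5 to 26.3 in MOLM-13. CXCR4, the homing receptor for the marrow, rose by 2.05 and 1.22 (difference -0.84 ± 0.068, edgeR adjusted p = 3e-18). In bulk RNA a smaller share of cells that express a gene and less RNA per cell cannot be told apart.

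**Figure D5:**
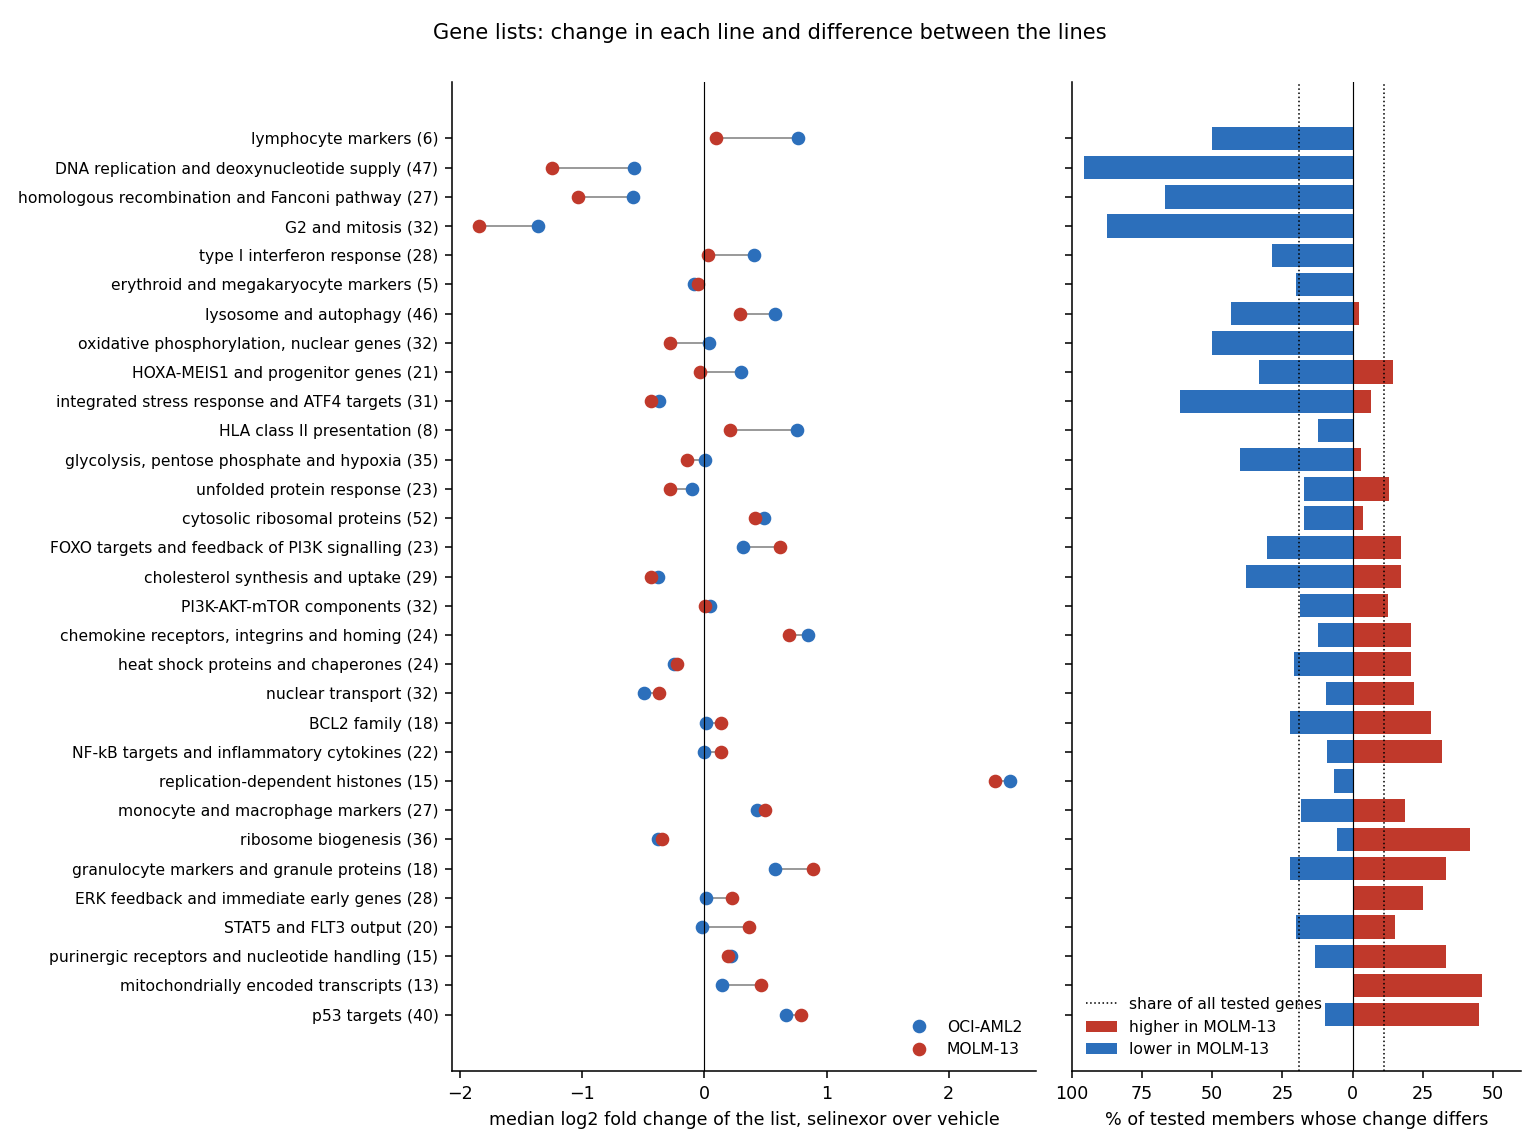
For 31 gene lists (number tested in parentheses), the left panel gives the median log2 fold change in OCI-AML2 (blue) and MOLM-13 (red), and the right panel the share of tested members whose change differed, to the right where higher and to the left where lower in MOLM-13. Dotted lines mark the shares of all tested genes, 11.1% and 19%. DNA replication (95.7%) and G2 and mitosis (87.5%) reach furthest to the left.

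Outside the opposite set, the largest differences among well-counted genes included that of SLC7A11, given above, and those of genes that moved in 1 line or moved the same way. TSPOAP1 (chromosome 17, 58301228 to 58328760, minus strand), which binds the mitochondrial translocator protein, read 52.6, 58.8 and 54.8 then 59.02, 55.5 and 54.97 CPM in OCI-AML2, where the groups overlapped. In MOLM-13 it rose from 208, 228 and 221 to 855, 862 and 794 CPM, a difference of 1.91 ± 0.070. SPTBN1, a spectrin of the membrane skeleton, fell in both lines but more in OCI-AML2, from 42.1, 49.96 and 39.7 to 8.35, 10.8 and 6.72 CPM, with 39.8, 39.03 and 39.03 then 24.3, 28.2 and 26.3 in MOLM-13. GPR84, a receptor for medium-chain fatty acids, fell in both lines, by -1.78 in OCI-AML2 and -0.27 in MOLM-13 (difference 1.51 ± 0.18). CYTIP, a partner of cytohesin in leukocyte adhesion, rose in both, by 1.44 and 2.92 (difference 1.48 ± 0.16). The change was lower in MOLM-13 for CAPG, an actin-capping protein (-1.84 ± 0.076), MT1F, a metallothionein (-1.79 ± 0.14), and ABAT, which breaks down GABA (-1.71 ± 0.2). MT1F rose in both lines, by 2.03 and 0.24. Its means were 7.22 then 29.8 CPM in OCI-AML2 and 61.6 then 72.6 in MOLM-13. CAPG rose in OCI-AML2 from 46.7, 38.9 and 46.4 to 163, 160.1 and 167 CPM and read 147, 154 and 157 then 157, 165 and 154 in MOLM-13. MT1F belongs to a family of near-identical genes, which can share its reads.

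The opposite genes had features that the rule did not use, and the wider set of genes called by the interaction leaned the same way in length and GC content. Their median transcript length was 5449.5 bases for the 62 up in MOLM-13 and 2534.5 for the 196 down, against 3461 for all well-counted genes. The median GC content was 46.5%, 53.9% and 48.2% in the same order. Among all well-counted genes with a called difference, the medians were 4613.5 bases and 46.9% GC for the 1069 higher in MOLM-13. For the 2064 lower there they were 2770 bases and 51.3% GC. Across 8281 well-counted genes, which are not independent replicates, the difference between the lines had a Spearman correlation of 0.27 with transcript length and -0.13 with GC content. Length followed the MOLM-13 change (0.19) and not the OCI-AML2 change (0.015), and GC content followed the OCI-AML2 change (0.16) more than the MOLM-13 one (0.067). With smooth trends over length and GC content removed from both changes, the rule gave 62 and 197 genes, of which 33 and 124 were among those reported. All 15 named genes down in MOLM-13 stayed opposite then, and 12 of the 15 up in MOLM-13 did (not DPYD, LIN54 and CBX6). What part length and GC content have in the differences was not tested. Of the 258 genes, 101 (39.1%) overlap an exon of a gene on the other strand, against 44.4% of well-counted genes. Of 617 well-counted genes in the 31 lists, 23 were opposite (3.73%), near the 3.09% of all well-counted genes.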

How the data were processed

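The values used are the raw counts the authors deposited: 1 table a line, genes in rows and libraries in columns. STAR, hg38, R 3.6.1 and DESeq2 are named in the submitters' processing notes; which tool and annotation did the counting is not given in the sources used here. Libraries were poly(A)-selected without strand, per the labels' protocols. The line was taken from the initial of each table and the treatment from each column's letter. Columns are not numbered; libraries are numbered here by column order, as names only. Deposited normalized values and the authors' MOLM-13 comparison were not used here.

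The counts of 12 libraries were fitted together with edgeR 4.0.16 (R 4.3.3), with 4 groups, TMM factors, low counts removed by filterByExpr (at its minimum count of 10 and total of 15), robust quasi-likelihood F tests, and Benjamini-Hochberg adjustment over 12530 genes at 0.05. Intervals are 95%. Totals ran from 8114892 to 11769061 counts, so that 3 counts correspond to 0.255 to 0.370 CPM; this floor covers counting error only. The members, the 31 gene lists and the rules were chosen with earlier results of these data known. After the files were read, only the spelling of mitochondrial symbols in the lists was adapted.

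Genes were named by rule: per direction the 15 opposite genes with the largest smaller change and the 6 largest differences among called, well-counted genes; XPO1, CDKN1A, MDM2, P2RY2, FLT3 and MYC; per list up to 3 members by smallest interaction p and all opposite members; and the genes on either side of 10 CPM. Some named genes are given only in counts or are not reported here. Positions, lengths and GC content come from GENCODE 29 (GRCh38), found for 12261 of 12530 symbols (97.9%); trends were removed with mgcv 1.9.3. Promoters come from RefSeq, found for 48 of 62 and 164 of 196 opposite genes. On simulated counts with 200 changed genes, 9 unchanged genes of 12390 were called.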

Additional observations from a re-analysis of the deposited data

Results flagged for a closer look

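The test of the difference between the lines passed for 3768 genes, and for 128 of the 137 named genes (56 higher and 72 lower in MOLM-13). Opposite genes and the largest differences were named because they passed, and list members by their smallest interaction p. The 128 therefore follows largely from the choice. The opposite genes numbered 62 up in MOLM-13 and 196 down. Among named well-counted genes, the largest differences in the higher direction were TSPOAP1 (1.91 on the log2 scale), SPTBN1 (1.78), PRTN3 (1.51), GPR84 (1.51), CYTIP (1.48) and CYFIP2 (1.34). In the lower direction they were SLC7A11 (-2.12), PLD4 (-1.87), CAPG (-1.84), MT1F (-1.79), ABAT (-1.71) and RMI2 (-1.62). Among opposite genes with both changes of at least 1.5-fold, ASS1 stood at -1.5002, EEF1E1 at -1.39 and KANK2 at -1.26. Groups of 3 libraries are too small for a test of single outlying libraries. Line and dose cannot be told apart in any of these values.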

How the results depend on the processing

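No paired analysis was possible because the columns carry no replicate numbers; the planned replicate block was not run. Of the 137 named genes, 127 kept the side of the threshold and the direction of their difference under all 20 settings. Many were chosen for large or low-p differences, so this share does not stand for all genes. XPO1 and CDKN1A, neither called, turned sign: XPO1 to 0.022 with DESeq2's size factors and with DESeq2, 0.044 with upper quartile scaling, 0.031 with each line alone and -0.044 to 0.12 with a library left out; CDKN1A to 0.023, 0.046, 0.023, 0.031 and -0.047 to 0.11 in the same order, and to 0.051 with trends over length and GC content removed. The 62 opposite genes up in MOLM-13 became 98 with upper quartile scaling. A minimum of 50 CPM left 31 up and 120 down, and changes of at least 1.5-fold in both lines left 0 up and 5 down. Medians of the 31 gene lists, each refitted under the 20 settings, moved by at least their SD for single libraries in 237 cases. They stayed within it in 383.

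Leaving out each library in turn gave 3333 to 3727 differing genes, 1228 to 2084 higher and 1450 to 2236 lower in MOLM-13, and 49 to 122 opposite genes up and 112 to 200 down. Lower calls numbered 1542 without OCI-AML2 vehicle library 1 and 1450 without MOLM-13 vehicle library 2, and higher calls 2084 without OCI-AML2 vehicle library 2. Without those libraries or OCI-AML2 vehicle library 3, 43.2% to 44.2% of calls were lower in MOLM-13, and TMM used another reference library. DESeq2 called 3084 genes and limma voom 3705. The removal of length and GC trends was added after the data were seen. Depth limits the list members with few counts, such as HLA-DRB1 and GP1BA, whose calls changed between settings.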

Other observations

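Some opposite genes outside the lists fall into functions a reader may want to follow; they were picked after their values were seen and no test was run on them as groups. Mitochondrial enzymes down in MOLM-13 and up in OCI-AML2 included MDH2 of the citric acid cycle (log2 changes 0.11 and -0.21, OCI-AML2 first), the IDH3 subunit IDH3G (0.33 and -0.27), the proton-driven transhydrogenase NNT (0.31 and -0.33) and the electron-transfer flavoprotein ETFB (0.73 and -0.36). NNT met the rule under 7 other scalings, tools and gene filters and without any 1 library. MDH2 met it under 2 of 3 other scalings, 1 of 2 other tools and 7 of 12 fits without a library, and IDH3G left the set when trends over length and GC content were removed. Kinase genes in the same direction were SYK, the kinase of Fc receptor and integrin signals (0.48 and -0.24), and PRKD2, a protein kinase D (0.19 and -0.30). Adhesion genes included FERMT3, the kindlin of blood cells that activates integrins (0.39 and -0.76), and the actin crosslinker ACTN1 (0.26 and -0.15). Under the other scalings PRKD2 and ACTN1 each met the rule in 1 of 3, and PRKD2 left the set when the trends were removed.

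Up in MOLM-13 and down in OCI-AML2 were nucleolar genes such as PDCD11, a processing factor of ribosomal RNA (-0.17 and 0.13), and MYBBP1A (-0.27 and 0.12), and the largest subunit of RNA polymerase II, POLR2A (-0.14 and 0.096). DICER1, which cuts microRNA precursors, changed by -0.19 and 0.20, and SSH3, a cofilin phosphatase, by -0.94 and 0.28. With trends over length and GC content removed, PDCD11, MYBBP1A, DICER1 and SSH3 were no longer opposite, and the MOLM-13 changes of PDCD11 and MYBBP1A were 0.017 and -0.026.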
